A study of Mus musculus with 386 samples.

Results

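The 10 genes described here are markers and regulators of pluripotency, namely Pou5f1, Sox2, Nanog, Klf4, Utf1, Dppa5a, Dppa2, Dppa4, Lin28a and Lin28b. They were taken by symbol from the 54658 gene rows of a count table of single mouse germ cells, and all 10 had a row. The cells came from dissociated ovaries at 3 ages, embryonic day 17.5 (E17.5) and postnatal days 2.5 and 6.5 (P2.5 and P6.5), and were collected by hand as female germ cells. Polyadenylated RNA of each cell was amplified with Smart-seq2, which reads along the transcript and carries no molecular identifiers. The 386 libraries include 22 of E17.5 and 47 of P6.5, the others being of P2.5, and the labels give them no strain, genotype, treatment, animal, litter or pool. Each age was therefore treated as 1 sample made of many cells. Differences between ages have no replicate check and no test, and the 95% interval of a ratio covers read counting alone.

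POU5F1 (also called OCT4), SOX2 and NANOG are the transcription factors at the core of the network that keeps embryonic stem cells pluripotent, and KLF4, UTF1 and the DPPA proteins work around that core. LIN28A and LIN28B are RNA-binding proteins that block the maturation of let-7 microRNAs. In the mouse, primordial germ cells carry much of this network and shut most of it down when the female germ line enters meiosis. Pou5f1 transcripts are known to return in oocytes that grow. The question put to the data was which of the 10 genes were present in oocytes of the 3 ages, and whether their levels in single cells went with the level of genes of oocyte growth.

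The sequences before the RefSeq transcript starts are shown for 4 members with different courses. As shares of gene counts Pou5f1 and Lin28a were higher after birth, Lin28b was lower, and Nanog was at or near 0 throughout. Each is the 250 bases upstream of the start in build GRCm38.p6, 5′ to 3′ on the strand of the gene. Capitals mark matches on either strand to an E-box (CANNTG), bound by basic helix-loop-helix factors, to TAATTG, a homeobox motif, or to CATTGT, a motif of SOX factors. No capitals of different motifs overlap in these windows.
Pou5f1, chr17:35505782-35506031, plus strand: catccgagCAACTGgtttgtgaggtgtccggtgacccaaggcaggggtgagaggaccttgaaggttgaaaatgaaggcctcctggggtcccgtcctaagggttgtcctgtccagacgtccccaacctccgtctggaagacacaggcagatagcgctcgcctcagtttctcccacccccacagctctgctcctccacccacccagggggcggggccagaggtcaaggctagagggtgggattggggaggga
Lin28a, chr4:134018817-134019066, minus strand: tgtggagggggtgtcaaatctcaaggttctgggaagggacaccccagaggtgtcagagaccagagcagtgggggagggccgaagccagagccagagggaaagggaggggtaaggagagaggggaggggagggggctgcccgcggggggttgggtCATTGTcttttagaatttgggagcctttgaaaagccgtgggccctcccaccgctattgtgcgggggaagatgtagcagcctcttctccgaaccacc
Lin28b, chr10:45470202-45470451, minus strand: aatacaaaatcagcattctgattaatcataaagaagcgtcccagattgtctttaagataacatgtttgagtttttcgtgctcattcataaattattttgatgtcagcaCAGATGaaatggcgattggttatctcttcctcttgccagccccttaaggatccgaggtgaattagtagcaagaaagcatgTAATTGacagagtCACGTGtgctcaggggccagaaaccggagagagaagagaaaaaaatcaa
Nanog, chr6:122707239-122707488, plus strand: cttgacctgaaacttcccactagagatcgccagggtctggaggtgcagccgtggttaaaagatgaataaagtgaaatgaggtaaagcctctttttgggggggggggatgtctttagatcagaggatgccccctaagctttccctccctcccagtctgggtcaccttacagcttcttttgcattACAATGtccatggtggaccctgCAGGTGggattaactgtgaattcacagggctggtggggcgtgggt
In the table of 32851 promoter windows an E-box was present in 66.2%, TAATTG in 7.17% and CATTGT in 10.7%. The octamer ATGCAAAT, the motif of POU factors such as POU5F1, was in 1.60% of windows and in none of the 9 windows of the 7 members that the table holds. Among the members TAATTG was found in the Lin28b window alone. That window lies inside the annotated span of Lin28b (chr10:45376620-45486395, minus strand). It thus precedes a transcript start within the gene and not the 5′ end of the gene. CATTGT was found in windows of Lin28a, Nanog and Pou5f1, the last in a window of a second transcript start that is not printed. A match or its absence describes these letters only and says nothing of binding.

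A library of E17.5 held 1016746 to 16125066 gene counts, one of P2.5 held 435560 to 23982709, and one of P6.5 held 5714357 to 15799302. Among the P2.5 libraries, 24 pairs were far more alike than any other (median chi-square per gene 0.686 to 1.03, against 2.31 or more) and each was counted as 1 cell, so that 362 cells remained. A level is given in CPM, the share of a library's or an age's gene counts scaled to a fixed total. For each spike-in count a cell held, by median, 81.3 gene counts at E17.5, 465 at P2.5 and 3203 at P6.5, and within P2.5 alone this ran from 65.8 to 2311. Whether equal amounts of spike-in went into the cells was not given in the sources used here, so the size of the RNA pool behind a CPM value is not known. The summed level of 6 germ cell markers was 2833 CPM for E17.5, 4019 CPM for P2.5 and 5175 CPM for P6.5. Dppa3, among the 6, was at 90.3, 2165 and 3265 CPM. It rose by more CPM than the sum, and the other markers together were lower after birth. The sum was below 1000 CPM in 4 E17.5 libraries (8, 10, 15 and 16), which are germ cells by label only.

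The libraries of E17.5 differed in ways that bear on the members. E17.5 library 17 had the highest level of 6 members among the 22 libraries, and it alone held 85.02% of the E17.5 counts of Pou5f1, 57.98% of those of Dppa5a, 89.7% of those of Sox2, 49.3% of those of Dppa4, 82.6% of those of Lin28a and 91.2% of those of Utf1. Its germ cell markers summed to 4693 CPM, and its 12 genes of oocyte growth summed to 2.53 CPM, the lowest of all 22. Of 18 other genes looked at after its values were seen, it was highest for 7. These include Sall4 (117.3 CPM), Tet1 (53.03 CPM), Prdm1 (52.2 CPM), Stra8 (809 CPM) and Sox2ot, within which Sox2 lies. It was not highest for the other 11, which include Dppa3 and Ddx4 (1 library above each), Zfp42 (4 above) and Mki67 (10 above). The share of all genes for which library 17 was highest was not counted, so these numbers have no background. Its Sycp1, a gene of the synaptonemal complex, stood at 607 CPM, below the 667 to 2166 CPM of the 17 other libraries above the marker minimum. Ratios of P2.5 over E17.5, shares of E17.5 cells and counts of genes against E17.5 are given with and without it.

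Among the other E17.5 libraries, counts of some members followed the library number. Sox2 and Utf1 had no count in libraries 1 to 10. In the 11 libraries numbered 11 to 22 other than 17, Sox2 had counts in 9 (up to 1.89 CPM) and Utf1 in all 11 (up to 2.84 CPM). Lin28a had counts in 2 of the libraries 1 to 10 (up to 0.157 CPM) and in 10 of those 11 (up to 8.51 CPM). Lin28b had a median of 30.8 CPM in libraries 1 to 10 and 9.85 CPM in those 11, while Dppa5a had 2.67 CPM and 19.7 CPM. Dppa2 had counts in 8 of the libraries 1 to 10 and in 1 of those 11. The mast cell list summed to between 1462 and 115229 CPM in libraries 1 to 10 and to between 13.04 and 385 CPM in those 11. This list includes Kit, which oocytes also express, at up to 3611 CPM in libraries 1 to 10 and up to 384.1 CPM in those 11. The immune list had a count in 10 of 10 and in 1 of 11. The labels do not say what the numbers stand for. Whether the low counts belong to the cells of these libraries was not tested. Values given without library 17 still include them.

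**Figure D1:**
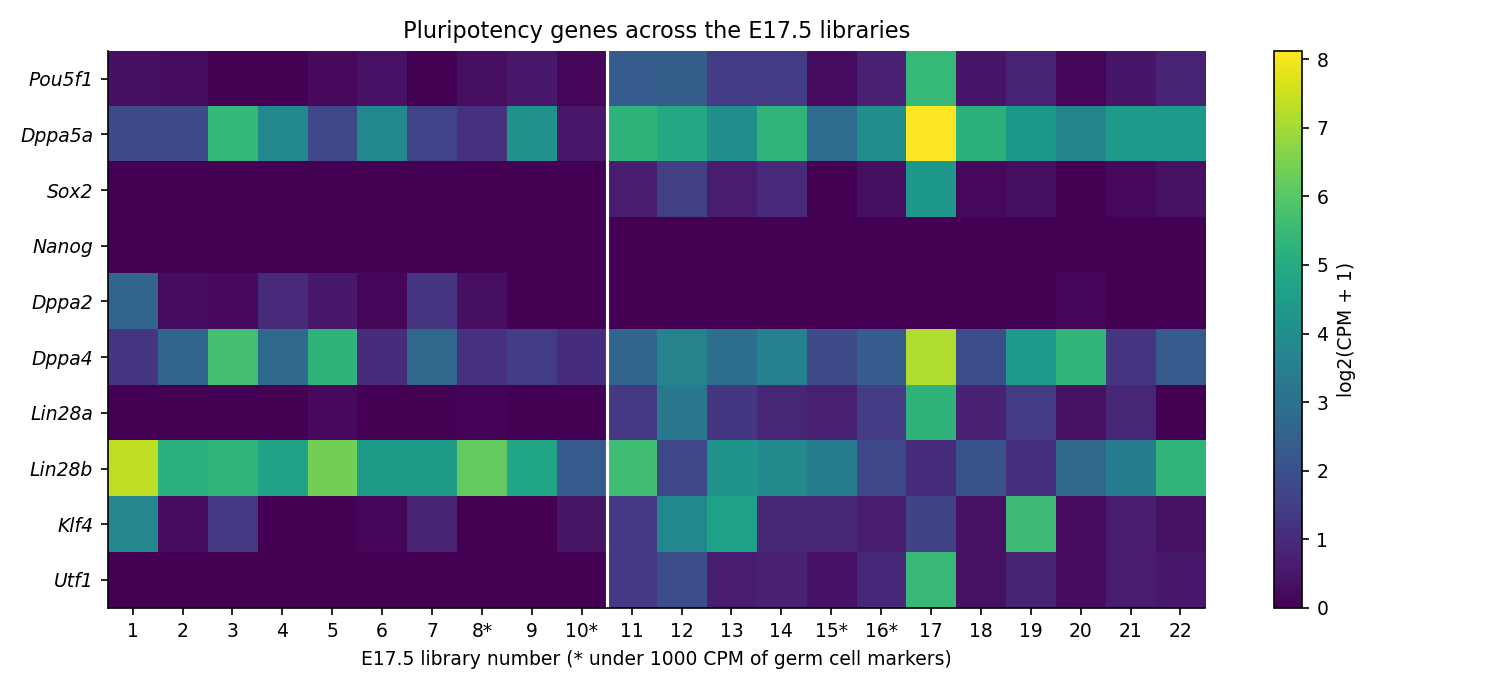
Level of each member, as log2(CPM + 1), in the 22 libraries of E17.5, with the white line between libraries 10 and 11. Library 17 is the brightest column for Pou5f1, Dppa5a, Sox2, Dppa4, Lin28a and Utf1, and the Lin28b row is brighter in libraries 1 to 10 (median 30.8 CPM).

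Pou5f1, which encodes the POU-domain factor that pluripotent cells cannot do without, was higher at each later age. It lies at chr17:35506018-35510772 on the plus strand (GRCm38). Per cell, the lowest, median and highest levels were 0, 0.361 and 42.5 CPM in E17.5 cells, 0, 17.8 and 90.8 CPM in P2.5 cells, and 44.6, 108.9 and 152.4 CPM in P6.5 cells. Every P6.5 cell was above every E17.5 cell, and 28 of the 47 P6.5 cells were above every P2.5 cell. In the stage sums it stood at 25.8 CPM at P2.5 against 3.36 CPM at E17.5, a ratio of 7.70 (95% interval 7.04 to 8.45). At P6.5 it stood at 103.3 CPM against those 25.8 CPM at P2.5, a ratio of 3.997 (3.95 to 4.05). Without library 17 the log2 ratio of P2.5 over E17.5, after adding 0.5 CPM to both, was 4.66 in place of 2.77. It was 5.22 against libraries 1 to 10 and 2.04 against libraries 11 to 22. The latter set includes library 17, with 85.02% of the E17.5 counts of Pou5f1, so the 2 values do not compare the number sets alone. In the 4 E17.5 libraries with few germ cell markers Pou5f1 was between 0.111 and 0.661 CPM, and its median was 0.416 CPM in the 17 others apart from library 17.

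After each cell was thinned to 400000 counts, Pou5f1 had a count in 6 of 22 cells at E17.5, a share of 27.3% (exact 95% interval 10.7 to 50.2%), and 23.8% without library 17. The share was 93.9% (90.5 to 96.3%) of cells at P2.5 and 100% (92.5 to 100%) of 47 cells at P6.5. With at least 5 counts required the shares were 4.55%, 66.6% and 100%. These intervals treat cells as independent draws. The Pou5f1 row overlaps Gm19553 on the opposite strand, which held 1 count in all cells together. Its relative Pou5f2 was at 2.95, 0.955 and 0.276 CPM for E17.5, P2.5 and P6.5.

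The other core factors were close to absent. Sox2, whose product pairs with POU5F1 on DNA, lies at chr3:34650405-34652461 within the longer transcript Sox2ot on the same strand. It had a count in 10 of 22 cells at E17.5, and library 17, at 19.3 CPM, held 89.7% of the counts. No other E17.5 library held more than 6 counts of Sox2. It had 2 counts in all P2.5 cells together, and 34 counts at P6.5, of which 32 were in cell 6 (4.65 CPM). Most Sox2 counts thus lay in 1 cell at E17.5 and in 1 cell at P6.5. The log2 ratio of P2.5 over E17.5 was −10.69 with nothing added (95% interval −13.74 to −8.81) and −1.96 with 0.5 CPM added. Without library 17 Sox2 was too low to be measured in that comparison. Sox2ot, whose reads cannot be told apart from those of Sox2 by strand, was at 1.39 CPM at E17.5, 0.186 CPM at P2.5 and 0.0635 CPM at P6.5.

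Nanog, the homeodomain factor of the core (chr6:122707489-122714633), had 0 counts at E17.5, 34 at P2.5 and 1 at P6.5. Of the 34, 20 were in 1 cell at 2.21 CPM, and 5.12% of P2.5 cells had any count. A total of 3 counts at E17.5 would be 0.0212 CPM, above the 0.0149 CPM of P2.5, so no fold is given.

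Klf4 and Utf1 were low in most cells of every age. Klf4, a zinc finger factor used in reprogramming (chr4:55527143-55532466), had summed levels of 3.34, 1.34 and 0.902 CPM for E17.5, P2.5 and P6.5, with medians per cell of 0.542, 0.206 and 0 CPM. Its E17.5 counts lay largely in a few libraries, with 46.999 CPM in library 19 and 24.3 CPM in library 13. Without the library of highest count the log2 ratio of P2.5 over E17.5 was −0.44 in place of −1.06, and without library 17 it was −1.10. Utf1, a chromatin-associated protein of undifferentiated cells (chr7:139943789-139945112), had 3.20, 1.09 and 0.318 CPM, and at E17.5 412 of its 452 counts were in library 17. Without that library the log2 ratio of P2.5 over E17.5 was 0.99 in place of −1.22, and Utf1 was no longer measured in P6.5 over E17.5. Thus the direction of Utf1 between P2.5 and E17.5 depended on 1 library.

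**Figure D2:**
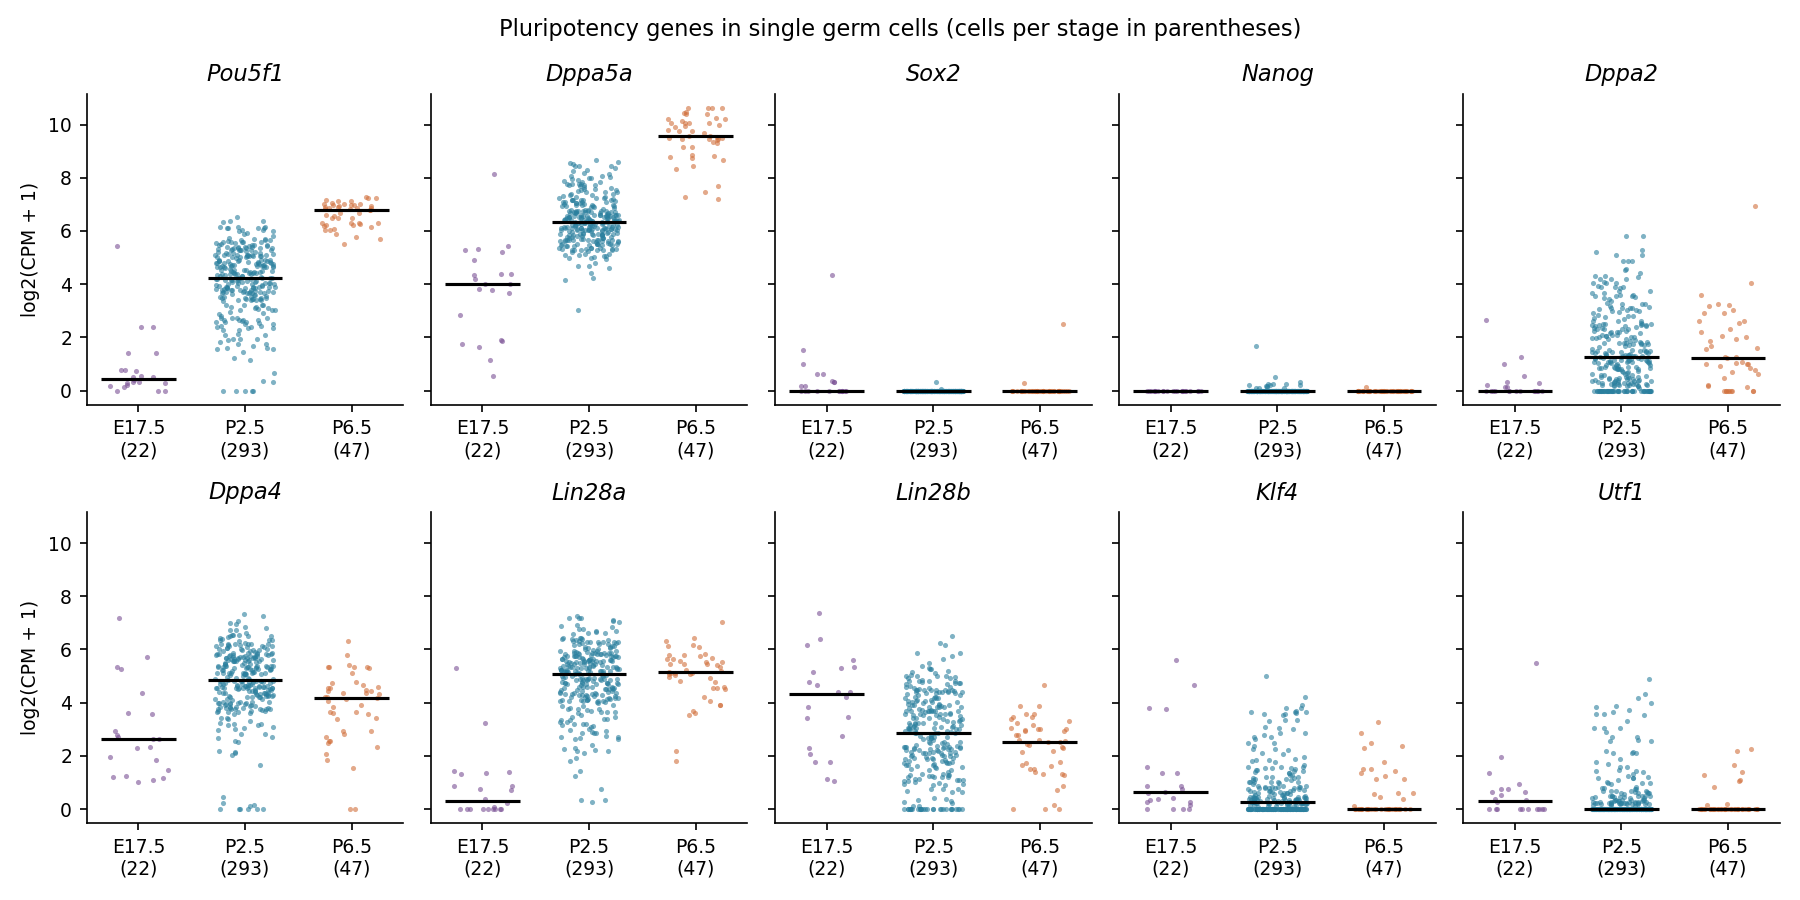
Level of the 10 members in single cells as log2(CPM + 1), with 22 cells of E17.5, 47 of P6.5 and all others of P2.5, and a bar at the median. Pou5f1 and Dppa5a step up at each age (medians 0.361, 17.8 and 108.9 CPM, and 15.1, 80.1 and 765 CPM), Lin28a steps up by P2.5 only, and Sox2 and Nanog lie at 0 in nearly all cells.

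Dppa5a, a KH-domain protein of the family that also holds the egg proteins OOEP and KHDC3, had the highest level of the 10 per gene length at each age. It lies at chr9:78367052-78368177 on the minus strand, 7931 bases from Ooep. Per cell, the lowest, median and highest levels were 0.443, 15.1 and 277.9 CPM in E17.5 cells, 7.22, 80.1 and 410 CPM in P2.5 cells, and 147.4, 765 and 1590 CPM in P6.5 cells. At P6.5, 40 of 47 cells were above every P2.5 cell. The stage sums gave 110 CPM at P2.5 against 32.2 CPM at E17.5, a ratio of 3.41 (3.31 to 3.52). They gave 850 CPM at P6.5 against the 110 CPM at P2.5, a ratio of 7.74 (7.70 to 7.78). Without library 17 the log2 ratio of P2.5 over E17.5 was 2.88 in place of 1.76. It was 3.59 against E17.5 libraries 1 to 10 and 1.09 against libraries 11 to 22. The latter set includes library 17, with 57.98% of the E17.5 counts of Dppa5a.

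Dppa5a was present before birth as well. After thinning it had a count in 90.9% (70.8 to 98.9%) of E17.5 cells, or 90.5% without library 17, and in every cell of both later ages. The rows of its copies Dppa5b and Dppa5c held 1 and 35 counts at P6.5, against 347859 counts of Dppa5a. The treatment of reads that match several copies was not given in the sources used here. Its neighbour Ooep was at 6.10, 472 and 3085 CPM for E17.5, P2.5 and P6.5, and its relative Khdc3 at 0.227, 13.1 and 111.1 CPM.

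Dppa4 and Dppa2 encode partner proteins with a SAP domain that bind chromatin, and their genes lie 9670 bases apart on chromosome 16 (Dppa4 at chr16:48283733-48294237, Dppa2 at chr16:48303908-48319723). Their courses differed. Dppa4 had medians per cell of 5.20 CPM at E17.5, 27.9 CPM at P2.5 and 17.3 CPM at P6.5, with highest values of 142.8, 160.5 and 77.9 CPM. The stages overlapped throughout, and the stage sums stayed within 2-fold in every comparison. At P2.5 it stood at 33.8 CPM against 19.4 CPM at E17.5, a ratio of 1.74 (1.67 to 1.81). Without library 17 the log2 ratio was 1.63 in place of 0.78, past 2-fold. It was 1.65 against libraries 1 to 10 and 0.33 against libraries 11 to 22. The latter set includes library 17, with 49.3% of the E17.5 counts of Dppa4. At P6.5 it stood at 18.3 CPM against those 33.8 CPM at P2.5, a ratio of 0.540 (0.527 to 0.553). Between P6.5 and E17.5 the log2 ratio was −0.09, and 0.76 without library 17.

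Dppa2 was low and uneven, with medians of 0, 1.40 and 1.32 CPM in E17.5, P2.5 and P6.5 cells. It stood at 4.64 CPM in the P2.5 sum against 0.241 CPM at E17.5, a ratio of 19.3 (13.8 to 27.8) that rests on 34 counts at E17.5, 20 of them in library 1. Without library 17, which had no count, the log2 ratio was 2.76 in place of 2.79. At P6.5 it stood at 5.37 CPM, and cell 32 alone held 1113 of the 2198 counts at 120 CPM. Without that cell the log2 ratio of P6.5 over P2.5 was −0.68 in place of 0.19. After thinning, Dppa2 had a count in 9.09% (1.12 to 29.2%) of E17.5 cells (9.52% without library 17), 47.4% (41.6 to 53.3%) of P2.5 cells and 40.4% (26.4 to 55.7%) of P6.5 cells.

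The LIN28 paralogues differed in direction between P2.5 and E17.5 as shares of gene counts, but not per spike-in count, where both were higher at P2.5, by log2 6.01 for Lin28a and 1.06 for Lin28b. Lin28a (chr4:134003330-134018841, minus strand) had lowest, median and highest levels of 0, 0.224 and 37.95 CPM in E17.5 cells, 0.197, 33.02 and 151.2 CPM in P2.5 cells, and 2.52, 35.003 and 128.97 CPM in P6.5 cells. In the stage sums it stood at 43.1 CPM at P2.5 against 3.09 CPM at E17.5, a ratio of 13.95 (12.7 to 15.4), and the log2 ratio was 5.34 without library 17 in place of 3.60. It was 6.36 against libraries 1 to 10 and 2.84 against libraries 11 to 22, a set that includes library 17 with 82.6% of the E17.5 counts. All P2.5 cells had a count, and 42.7% were above every E17.5 cell. At P6.5 it stood at 39.1 CPM against those 43.1 CPM at P2.5, a ratio of 0.908 (0.893 to 0.924). The cells of P6.5 and P2.5 overlapped across the range. Gm13061, which overlaps Lin28a on the opposite strand, was at 0, 1.46 and 1.09 CPM.

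Lin28b (chr10:45376620-45486395, minus strand) held a smaller share of gene counts after birth when all E17.5 libraries were used. Its lowest, median and highest levels were 1.05, 18.9 and 162.7 CPM in E17.5 cells, 0, 6.30 and 90.7 CPM in P2.5 cells, and 0, 4.76 and 24.3 CPM in P6.5 cells, and the ages overlapped. It stood at 10.7 CPM at P2.5 against 27.95 CPM at E17.5, a ratio of 0.383 (0.370 to 0.396), and at 5.35 CPM at P6.5, a ratio of 0.5001 (0.479 to 0.523) to P2.5. Against E17.5 libraries 11 to 22 alone, library 17 included, the log2 ratio of P2.5 over E17.5 was 0.02 in place of −1.34. Against libraries 1 to 10 it was −2.15, and without library 17 it was −1.44. Library 17, the highest for Lin28a, was the lowest of the 22 for Lin28b. Per gene length, the authors' deposited FPKM averaged 0.906 for Lin28a and 4.85 for Lin28b at E17.5, 12.4 and 1.81 at P2.5, and 11.9 and 1.10 at P6.5, so the order of the paralogues changed between E17.5 and P2.5.

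On the same per-length scale the members spread widely at P6.5. The mean of the deposited FPKM was 1544 for Dppa5a and 206.7 for Pou5f1, then 13.7 for Dppa4 and 11.9 for Lin28a, 2.41 for Dppa2 and 1.10 for Lin28b. Klf4, Utf1 and Sox2 were at 0.347, 0.313 and 0.0400, and Nanog was listed at 0. At P2.5 the order began with Dppa5a (200), Pou5f1 (60.3), Dppa4 (23.4) and Lin28a (12.4). At E17.5 it began with Dppa5a (46.9), Dppa4 (12.99), Pou5f1 (11.2) and Lin28b (4.85). These are the authors' values averaged per age with no spread, so neighbours in the order, such as Dppa4 and Lin28a or Klf4 and Utf1 at P6.5, are not said to differ. Library 17 held 85.02% of the E17.5 counts of Pou5f1, and its part in the mean FPKM was not examined.

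Counted together, 9 of the 10 members were measured between P2.5 and E17.5, meaning that either sum reached 1 CPM and 3 or more cells had a count. Of these, 4 were higher by 2-fold or more at P2.5 after adding 0.5 CPM (Pou5f1, Dppa5a, Dppa2 and Lin28a), where 22.6% of all 17421 measured genes were. Another 4 were at least 2-fold lower (Sox2, Lin28b, Klf4 and Utf1), where 32.4% of all measured genes were. The median log2 ratio was 0.78 over the 9 and −0.26 over all genes. Without library 17 there were 5 higher, with Dppa4 added, and 2 lower, Lin28b and Klf4, where 4005 of all 17406 measured genes were higher and 5652 lower. Sox2 was then not measured, and Utf1 was within 2-fold.

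Between P6.5 and P2.5, 8 members were measured and 2 were at least 2-fold higher, Pou5f1 and Dppa5a, where 6.90% of all 14643 measured genes were. None of the 8 was 2-fold lower, where 9.30% of all genes were, although Lin28b and Utf1 lay just inside that limit at log2 ratios of −0.94 and −0.96. The median was −0.26 over the 8 and −0.18 over all genes. Between P6.5 and E17.5, 9 were measured, with 4 higher (22.7% of all 17430 genes) and 4 lower (39.5%), and these were the same genes as between P2.5 and E17.5. Without library 17 there were 4 higher and 2 lower, where 4004 of all 17414 measured genes were higher and 6896 lower. Sox2 and Utf1 were then not measured, so the fall in lower members came from loss of measurement. This comparison shares its cells with both others and adds no independent support.

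Most of the lower members changed direction on another scale. Read per spike-in count, all genes shifted by log2 2.40 between P2.5 and E17.5, by 2.93 between P6.5 and P2.5 and by 5.34 between P6.5 and E17.5. On that scale 8 of 9 measured members were higher by 2-fold or more at P2.5 than at E17.5, where 75.5% of all genes were. All 8 measured were at P6.5 over P2.5, where 99.1% of all genes were, and all 9 at P6.5 over E17.5, where 97.4% were. Lin28b, Klf4 and Utf1 were higher at P2.5 than at E17.5, by log2 1.06, 1.34 and 1.19. Pou5f1 and Dppa5a were higher at P6.5 than at P2.5 by log2 4.91 and 5.88 on that scale. With all E17.5 libraries used, Lin28b, Klf4 and Utf1 were thus lower as a share of gene counts and not per spike-in count. As a share this depended on the E17.5 libraries. Utf1, with 91.2% of its E17.5 counts in library 17, was not lower without it. Lin28b was not lower against libraries 11 to 22 alone, nor was Klf4 against libraries 1 to 10 alone. With nothing added, Sox2 was lower on both between P2.5 and E17.5, at a ratio of 0.00322 per spike-in count. It was higher per spike-in count, at log2 0.45, with 0.5 CPM added to its 2 counts at P2.5. Library 17 held 89.7% of the E17.5 counts of Sox2, which was too low to be measured without that library.

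**Figure D3:**
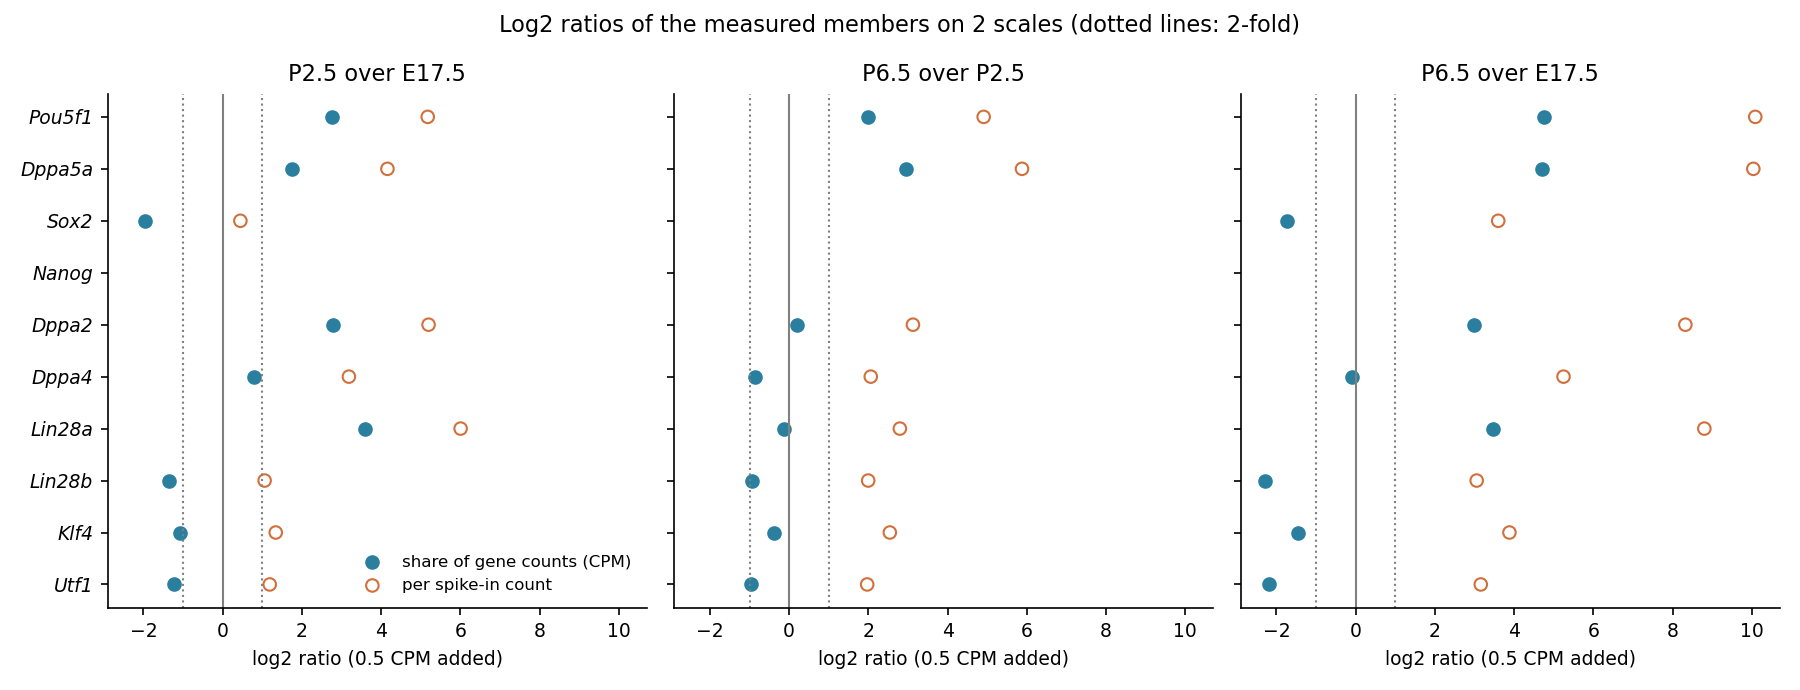
Log2 ratios of the measured members in the 3 comparisons, with 0.5 CPM added, as a share of gene counts (filled) and per spike-in count (open), and dotted lines at 2-fold. The open points lie to the right of the filled ones by 2.40, 2.93 and 5.34. In P2.5 over E17.5 Sox2, Lin28b, Klf4 and Utf1 cross 0, and in the other comparisons further members such as Dppa4 do.

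Cells of other types could add reads, and their markers differed between ages. The 10 granulosa and pregranulosa genes summed to 391 CPM at E17.5 (15.5 to 2185 CPM per cell), to 18.1 CPM at P2.5 (per cell 0 to 1187 CPM), and to 9.76 CPM at P6.5 (per cell 0 to 146.9 CPM), with all 10 seen at each age. The 6 erythroid genes summed to 1604 CPM at E17.5 (per cell 214.9 to 5866 CPM), to 38.9 CPM at P2.5 (per cell 0 to 2584 CPM), and to 1.94 CPM at P6.5 (per cell 0 to 49.6 CPM). The mast cell list summed to 8959, 1496 and 1114 CPM for E17.5, P2.5 and P6.5. Of this Kit, which oocytes also express, was 597 CPM at E17.5, 1495 CPM at P2.5 and 1114 CPM at P6.5. E17.5 library 10 held 82.1% of the E17.5 counts of that list, and the E17.5 sum was 1709 CPM without it. Mcpt4 was at 0 at P2.5, and Cma1, Tpsb2 and Mcpt4 at P6.5. The stroma list summed to 59.1, 26.3 and 32.9 CPM, the endothelium list to 33.6, 17.01 and 6.18 CPM and the surface epithelium list to 68.6, 9.06 and 1.48 CPM, with no gene at 0. The immune list summed to 51.1, 11.1 and 13.965 CPM, with C1qb and Lyz2 at 0 at E17.5 and Tyrobp and Lyz2 at P6.5. Library 10 held 82.8% of the E17.5 immune counts (9.36 CPM without it), library 18 held 57.7% of the stroma counts (26.4 CPM without it), and library 16 held 74.9% of the surface epithelium counts (18.2 CPM without it). In E17.5 library 19, which held the highest Klf4, granulosa genes summed to 1315.5 CPM and stroma genes to 311.4 CPM. The part of such cells in the levels of the members was not tested.

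Within P2.5 and within P6.5, the level of some members followed the growth list. This list sums 12 genes of growing oocytes, among them the egg coat genes Zp1, Zp2 and Zp3, and also Gdf9 and Padi6. It holds no member. Padi6 alone was 3567 CPM of the 10323 CPM of the list in the P2.5 sum. In the P6.5 sum it was 18772 CPM of 45916 CPM. No cell size was measured. For E17.5 no correlation was computed. There the list had a median of 149.7 CPM in libraries 1 to 10 and 29.5 CPM in libraries 11 to 22 without 17. The medians of Pou5f1 were 0.182 and 0.705 CPM, those of Dppa5a 2.67 and 19.7 CPM, and those of Lin28a 0 and 0.840 CPM. Between these sets the 3 members were thus lower where the list was higher. Over the P2.5 cells, thinned to equal depth, the list ran from 1752.5 to 24760 CPM, and its Spearman correlation was 0.55 with Pou5f1, 0.51 with Dppa5a and 0.44 with Lin28a. It was 0.12 with Dppa2, −0.15 with Dppa4, and between −0.05 and 0.02 with Lin28b, Klf4 and Utf1. Cells share library preparation and depth, and these values describe them with no test. Depth itself correlated with the growth list at 0.38, with Pou5f1 at 0.30, with Dppa5a at 0.21 and with Lin28a at 0.29.

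The P2.5 cells were split into 4 bins by the growth list. From the lowest bin to the highest, the median of Pou5f1 was 7.50, 12.5, 17.5 and 35 CPM, that of Dppa5a 52.5, 75, 90 and 132.5 CPM, and that of Lin28a 17.5, 32.5, 37.5 and 47.5 CPM. Dppa4 had medians of 35 CPM in the lowest bin and 27.5 CPM in the highest. The middle ranges of neighbouring bins overlapped. For Pou5f1 the 25th and 75th percentiles were 25 and 52.5 CPM in the highest bin and 3.12 and 16.9 CPM in the lowest, which did not overlap. The bins are ranges of 1 score, with 16, 28 and 25 cells within 5% of the 3 limits. The gene counts per spike-in count, which measure RNA content only where cells received equal spike-in, gave other values, with correlations of 0.07 for Pou5f1, −0.02 for Dppa5a and 0.14 for Lin28a. The growth list itself correlated with that measure at 0.17 at P2.5.

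At P6.5 the growth list ran from 18810 to 72020 CPM over 47 cells. Its correlation was 0.56 with Dppa5a, which had bin medians of 467.5, 847.5, 745 and 1122.5 CPM. It was 0.24 with Pou5f1, which had medians of 83.8 CPM in the lowest bin and 112.5 CPM in the highest, and 0.13 with Lin28a. Among cells of both ages that shared the range of 18810 to 24760 CPM, Pou5f1 was at 42.5, 80 and 82.5 CPM in the 3 P6.5 cells, against 22.5 to 100 CPM (median 35) in the 8 P2.5 cells. Dppa5a reached 480 CPM (median 207.5) in the 3 P6.5 cells, against 55 to 400 CPM (median 237.5) in the 8 P2.5 cells. Lin28a had a median of 10 CPM (up to 30 CPM) in the 3 P6.5 cells, against a median of 75 CPM in the 8 P2.5 cells. Dppa4 had a median of 7.5 CPM (5 to 62.5 CPM) in the 3 P6.5 cells, against 30 CPM (12.5 to 100 CPM) in the 8 P2.5 cells. At a matched growth list the cells of both ages overlapped for these 4 genes, with too few cells to say more.

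**Figure D4:**
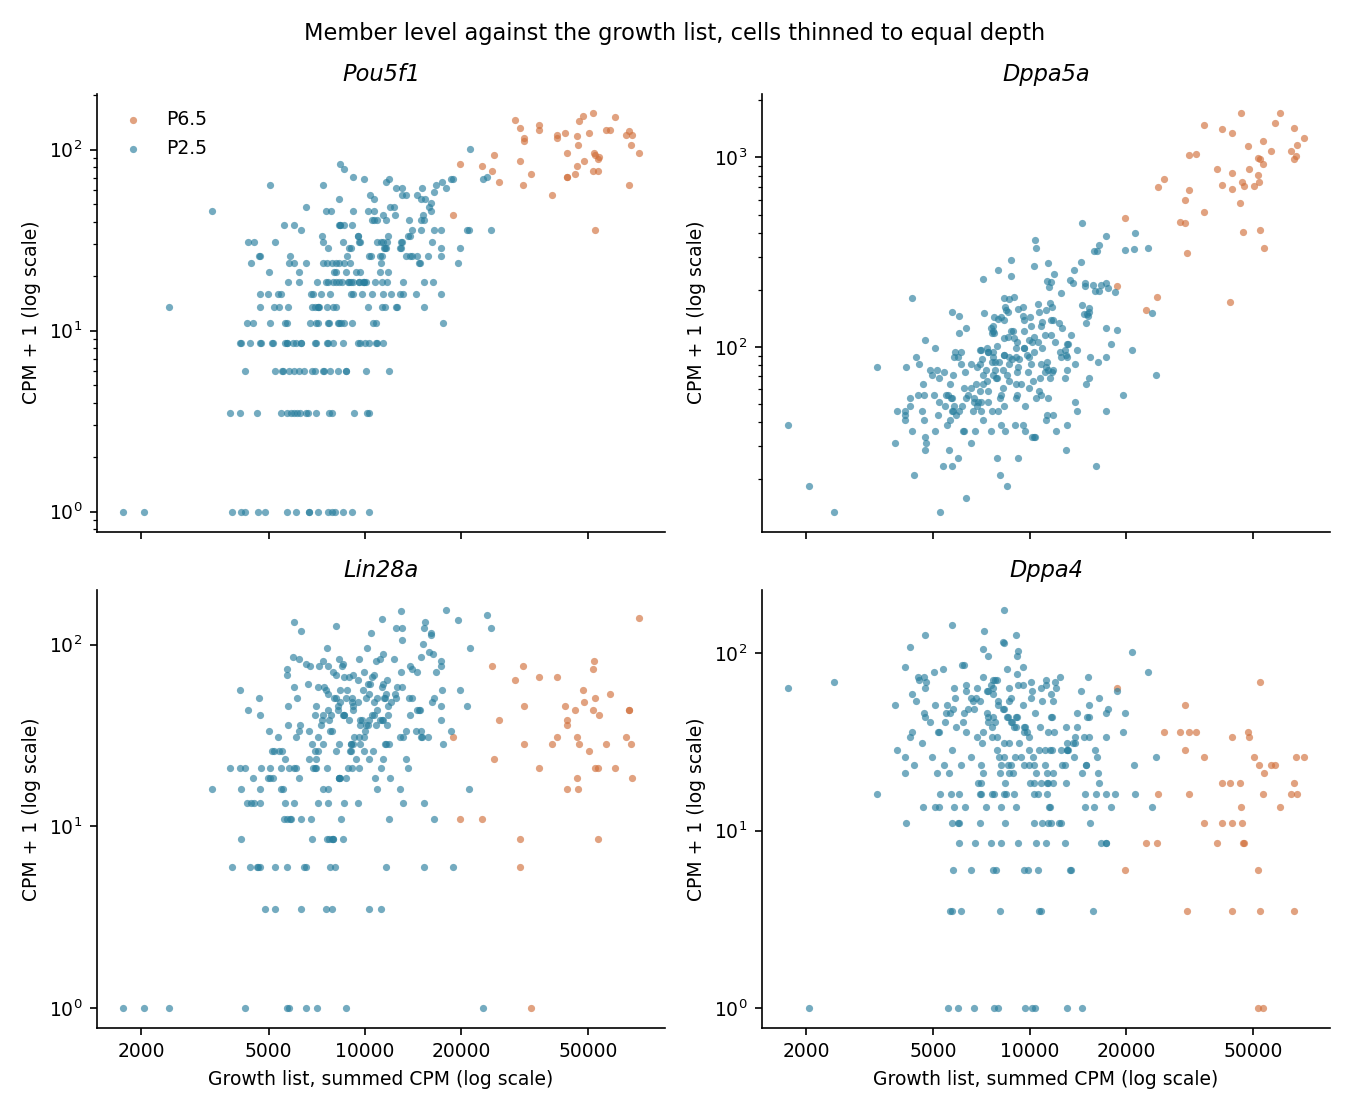
Level of 4 members (CPM + 1, log scale) against the summed CPM of the growth list (log scale) in cells thinned to 400000 counts, for the 47 P6.5 cells and for the P2.5 cells. Pou5f1 and Dppa5a follow the list within P2.5 (correlations 0.55 and 0.51) and stand higher in P6.5 cells, Lin28a follows it within P2.5 (0.44), and Dppa4 has a correlation of −0.15.

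The 3 members with the highest correlations to the growth list did not all go together. Over P2.5 cells the correlation was 0.44 between Pou5f1 and Dppa5a, 0.30 between Pou5f1 and Lin28a, and 0.032 between Dppa5a and Lin28a. It was −0.16 between Dppa4 and Lin28a. After thinning, a cell had a count of a median of 3.5 members at E17.5 (range 1 to 7), 5 at P2.5 (range 2 to 8), and again 5 at P6.5 (range 4 to 8). Among 7215 genes, those most like Pou5f1 over P2.5 cells (Pearson r of log2 values) were Padi6 (0.65), Zp1 (0.58) and Oas1c (0.58). Those most like Dppa5a were Oas1c (0.65), Ooep (0.64) and Ly6a (0.61). Padi6, Zp1 and Ooep belong to the growth list. Those most like Lin28a were Uhrf1 (0.55), a cofactor of DNA methylation, Marcksl1 (0.51) and Akap1 (0.51). Those most like Lin28b were Nxf2 (0.42), Cited1 (0.42) and Nae1 (0.39), and no gene passed 0.32 with Dppa4, 0.30 with Dppa2 or 0.21 with Klf4.

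Other genes of the pluripotency network were no more uniform than the members. Of 24, 18 were measured between P2.5 and E17.5, with 6 at least 2-fold higher (22.6% of all genes) and 8 lower (32.4% of all genes). The median was −0.59, against −0.26 for all genes. Without library 17, which held 49.4% of the E17.5 counts of Mycn and 81.96% of those of Sall4, 7 of 17 were higher and 7 lower, and the median was 0.15. Tcl1, a cofactor of AKT kinase, stood at 633 CPM at P2.5 against 30.4 CPM at E17.5, and the nuclear receptor gene Nr0b1 at 14.9 CPM against 0 CPM. Mycn and Myc stood at 0.0912 and 1.83 CPM at P2.5, against 18.7 and 25.9 CPM at E17.5 (10.2 CPM of Mycn without library 17). Between P6.5 and P2.5, 13 were measured, with 4 higher (6.90% of all genes) and 3 lower (9.30%), and a median of −0.15, against −0.18. The zinc finger gene Sall4 stood at 65.4 CPM at P6.5 against 25.5 CPM at P2.5 and the homeobox gene Gbx2 at 18.1 CPM against 4.82 CPM. Nr0b1 and Zfp42 stood at 3.51 and 9.88 CPM at P6.5, against 14.9 and 21.6 CPM at P2.5. Between P6.5 and E17.5, 6 of 18 were higher (22.7% of all genes) and 10 lower (39.5%), and 6 and 7 of 17 without library 17.

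Of 10 regulators of primordial germ cells, 8 were measured between P2.5 and E17.5, with 4 higher (22.6% of all genes) and 2 lower (32.4%), and a median of 0.94. Without library 17 there were 5 higher and 2 lower, and the median was 1.84. Dppa3, an egg protein that guards DNA methylation, stood at 2165 CPM at P2.5 against 90.3 CPM at E17.5 (57.2 CPM without library 17), and Dnd1, an RNA-binding protein, at 51.5 CPM against 1.92 CPM. Tcf7l2 stood at 2.07 CPM at P2.5 against 33.9 CPM at E17.5. Between P6.5 and P2.5, 1 of 7 was higher (6.90% of all genes) and 2 were lower (9.30%), with a median of −0.42. Ifitm3 stood at 15.7 CPM at P6.5 against 0.932 CPM at P2.5, Dnd1 at 18.3 CPM against 51.5 CPM, and Prdm1, the repressor that specifies germ cells, at 13.3 CPM against 32.96 CPM. Between P6.5 and E17.5, 5 of 8 were higher (22.7% of all genes) and 2 lower (39.5%), as many as without library 17.

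Around LIN28, the 12 genes of the let-7 axis were all measured between P2.5 and E17.5, with 6 higher (22.6% of all genes) and 3 lower (32.4%), and a median of 0.73. Without library 17 these counts were 6 and 3, and the median was 0.68. Trim71, a let-7 target, stood at 169.4 CPM at P2.5 against 16.4 CPM at E17.5, and Dicer1, which cuts microRNA precursors, at 402 CPM against 83.8 CPM. The let-7 target Igf2bp1 stood at 0.757 CPM at P2.5 against 21.4 CPM at E17.5 (12.7 CPM without library 17), and Tut4, the uridyl transferase that acts with LIN28A, at 8.04 CPM against 64.6 CPM. Between P6.5 and P2.5, 0 of 11 were 2-fold higher (6.90% of all genes) or lower (9.30%). Igf2bp2 lay closest to the limit at 238.4 CPM at P6.5 against 127.3 CPM at P2.5. Between P6.5 and E17.5, 5 of 12 were higher (22.7% of all genes) and 4 lower (39.5%), as many as without library 17. Mature let-7 was not measured by this assay.

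Family relatives of the members gave 4 higher (22.6% of all genes) and 7 lower (32.4%) of 14 measured between P2.5 and E17.5, and 5 and 7 without library 17. The median was −1.16, against −0.26 for all genes. Sox15 stood at 49.3 CPM at P2.5 against 1.95 CPM at E17.5, while Klf6 stood at 12.6 CPM against 85.5 CPM and Pou6f1 at 1.28 CPM against 13.2 CPM. Between P6.5 and P2.5, 1 of 12 was higher (6.90% of all genes), Klf17, at 43.3 CPM at P6.5 against 6.99 CPM at P2.5, and 2 were lower (9.30%), with Klf10 at 37.6 CPM against 87.2 CPM. Between P6.5 and E17.5, 5 of 15 were higher (22.7% of all genes) and 9 lower (39.5%), and 5 and 8 of 14 without library 17. Beside them, the growth list had 11 of 12 genes higher at P2.5 than at E17.5 and 12 of 12 higher at P6.5 than at P2.5.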

How the data were processed

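The authors deposited a table of counts per gene, not normalized, and one of FPKM, in which counts are divided by gene length and by library size. Per the submitters' processing notes the tools were STAR 2.7.10b, HTSeq 0.13.5 and RSEM 1.3.3 with build mm10. The strand setting, the annotation and the tool behind each table were not given in the sources used here. Counts were the main measure. Positions are from GENCODE M21 on GRCm38, the assembly also called mm10.

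Columns were matched to libraries by name, with 0 left over. The 92 spike-in rows, which took 1.18%, 0.226% and 0.0296% of the counts of E17.5, P2.5 and P6.5 cells, were kept out of totals. Nearest pairs of libraries with a median chi-square per gene below 1.5 were summed (24 pairs of P2.5). Cells needed 100000 counts and 2000 genes, which removed 0. Cells were picked by hand and doublets were not called, although some cells held markers of other cell types, as given above. Counts were summed per age and scaled to CPM, and ratios have exact conditional Poisson 95% intervals. A gene was called at 2-fold after adding 0.5 CPM if it had 1 CPM in either sum and a count in 3 cells. Shares use cells thinned to 400000 counts and exact Clopper-Pearson intervals. Reads here carry no molecular identifiers and are not independent molecules, and all intervals and floors cover counting error only. TMM factors were from edgeR 4.0.16 (R 4.3.3), used for scaling alone, and all else was done in Python 3.11.15 with scipy 1.17.1, with the ratio step tested on simulated data.

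The members and lists were chosen with earlier results of these data known. Named were all 10 members, up to 2 genes at either end of each list with at least 5 CPM, the 3 genes most like each member found in 50% of P2.5 cells, taken from genes with at least 20 CPM, and copies or overlapping rows. Alternatives changed the scaling, unit, added CPM, filter, pairs, single cells and E17.5 libraries, and those without E17.5 library 17, or without the library highest for a marker list, were added after seeing the data. Promoter sequences are from RefSeq (GRCm38.p6), which held 7 of the 10 members.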

Additional observations from a re-analysis of the deposited data

How the results depend on the processing

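No paired analysis was possible because each age is 1 sample and no test is made, and a library number only names a cell. Of P2.5 over E17.5, the 4 members at least 2-fold higher became 8 per spike-in count, a scale on which 75.5% of all genes were. The 4 lower became 0 per spike-in count, where 4.16% of all genes were lower. They became 2 without E17.5 library 17 (32.5% of all genes), an alternative chosen after seeing the data, under which Sox2 was not measured. They became 1 with TMM scaling and 2 with the mean of the deposited FPKM. Without the cell of highest count they became 1, and with E17.5 libraries 1 to 10 alone they became 1. Of P6.5 over P2.5, the 2 higher became 8 per spike-in count (99.1% of all genes), and the 0 lower became 1 with 0.1 CPM added. Of P6.5 over E17.5, the 4 higher became 9 per spike-in count (97.4% of all genes), and the 4 lower became 0 (0.419% of all genes). Those 4 lower became 2 without library 17 (39.6% of all genes). They became 1 without the cell of highest count and 1 with E17.5 libraries 1 to 10 alone. For alternatives given here without a share, the share of all genes was not counted.

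Log2 ratios that changed sign in P2.5 over E17.5 per spike-in count were those of Sox2 (0.45), Lin28b (1.06), Klf4 (1.34) and Utf1 (1.19). The value of Sox2 comes from the 0.5 CPM added to its 2 counts. Others were Lin28b with E17.5 libraries 11 to 22 alone, library 17 included (0.016), Klf4 with libraries 1 to 10 alone (0.30), and Utf1 without the cell of highest count or without library 17, which is that cell (0.99), and with libraries 1 to 10 alone (1.67). In P6.5 over E17.5 they were Sox2 (3.60), Lin28b (3.06), Klf4 (3.88) and Utf1 (3.16), all per spike-in count. The per spike-in shift by construction adds the same amount to every gene, and for the E17.5 subsets the cause was not tested. In P6.5 over P2.5, 0 called members changed sign. The calls on Pou5f1 and Dppa5a as higher in all 3 comparisons held under every alternative that was run. Thinned shares depend on depth and on the minimum count, as for Pou5f1 at E17.5, which was 27.3% of cells with 1 count, 4.55% with 5 counts and 86.4% with no thinning.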
